A study of Mus musculus with 8 samples.

Results

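T cells of libraries C1 and C2, from single-cell expression data of sorted leukocytes of the mouse, were compared as summed pools. A barcode, the tag that stands for 1 droplet or cell, entered if it held at least 500 unique molecular identifiers (UMIs, counted molecules), at least 300 genes, at most 10% mitochondrial UMIs, at least 2 UMIs of Cd3d, Cd3e and Cd3g together, 0 UMIs of the B cell genes Cd79a and Ms4a1, and at most 2 UMIs of the macrophage genes C1qa, C1qb and C1qc. Barcodes with at least 1 UMI of Cd8a or Cd8b1 and 0 of Cd4 were called Cd8-only, and the converse Cd4-only. C1 gave 226 Cd8-only and 269 Cd4-only barcodes and C2 gave 2322 and 759. These 3576 members were taken from 10683 barcodes of both libraries past the depth, gene and mitochondrial limits, and from 25172 in the series. The UMIs of every gene were summed per library and class and scaled to a pool of 1000000 UMIs (CPM).

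Leukocytes were taken from 2 tissues, the submandibular salivary gland and its draining lymph nodes. The donors were 4 SS mice and 4 controls, all near 12 weeks of age. Their genotypes are given by these words alone, and SS is not spelled out. All groups share a sort on CD45, stained with an antibody to CD45.2. There are 8 samples in all, 4 for gene expression and 4 for the T cell receptor, with 1 of each kind for SS gland, control gland, SS node and control node, and the labels do not say how animals were pooled. Gland tissue went through a warm collagenase digestion, whereas nodes were dissociated mechanically. No label tied C1, C2, C3 or C4 to a genotype or a tissue, so C1 and C2 are compared below as libraries and not as SS and control or as gland and node. Salivary marker levels, given below, were high in both C1 and C2 and low in C3 and C4. The tissue of a library was not tested. With 1 library a side there was no test of any difference; the intervals given are 95% intervals for counting error alone and do not hold the spread between mice.

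CD8 T cells recognise peptides on MHC class I and kill target cells through perforin and granzymes, whereas CD4 T cells recognise MHC class II and act mainly through cytokines. T cells that settle in epithelial organs such as salivary glands carry integrins that bind cadherin and collagen and lose the receptors that guide cells back to lymph nodes. T cells that meet their antigen repeatedly carry inhibitory receptors such as PD-1 and LAG-3 together with the transcription factor TOX.

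The genes that chose the barcodes stand here as a check of the gate and not as a result. In the Cd8-only pools Cd8a stood at 916 CPM in C1 and 1207 CPM in C2, and Cd8b1 at 949 CPM in C1 and 1349 CPM in C2. In the Cd4-only pools Cd4 stood at 456 CPM in C1 and 614 CPM in C2. Median Cd3 UMIs per barcode were 23 in C1 and 25 in C2 for Cd8-only and 16 and 19 for Cd4-only. At the edge of the rule, 43 gated barcodes of C1 and 99 of C2 held exactly 2 Cd3 UMIs, and 115 and 215 barcodes missed it by holding 1. The receptor constant chain gene Trac, which the rule did not use, was at 181 CPM in C1 and 294 CPM in C2 in Cd8-only barcodes and at 247 CPM in C1 and 287 CPM in C2 in Cd4-only ones. Of the 16 receptor complex and signalling genes, such as Lck and Lat, 0 lay past 2-fold in either class.

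Depth differed between pools. The Cd8-only pools held 1695959 UMIs in C1 and 14208932 in C2, with medians of 6521.5 and 5127 UMIs a barcode; the Cd4-only pools held 1466160 and 3985522, with medians of 5115 and 4413. The whole libraries held 48439860 and 44798843 UMIs. The T cell gate took 919 of 5616 barcodes (16.4%) in C1 and 3543 of 5067 (69.9%) in C2. In C1, 414 of the gated barcodes (45.0%) held neither co-receptor, against 327 (9.23%) in C2, and 10 and 135 held both; those barcodes entered neither class. In a pool, fewer cells that express a gene and less RNA per cell cannot be told apart, so shares of barcodes are given beside the levels of the main genes. Members of C1 and C2 shared 1 barcode sequence.

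Transcripts of other cells were present in all 4 pools. The 26 salivary epithelium markers summed to 39608 and 25032 CPM in the Cd8-only pools of C1 and C2 and to 9063 and 18043 CPM in the Cd4-only pools. In barcodes of 50 to 200 UMIs, which stand for free RNA, they summed to 423552 and 333278 CPM in C1 and C2. The same list stood at 5.67 and 8.81 CPM in the Cd8-only barcodes of C3 and C4. A single Cd8-only barcode of C1 held 83.9% of that pool's salivary UMIs. Without the top barcode of each library the list stood at 6667 CPM in C1 and 19333 CPM in C2. The dendritic cell list was at 1289 and 221 CPM in Cd8-only pools, but 87.2% of the C1 UMIs and 25.4% of the C2 UMIs came from 1 barcode each, and without the top barcode of each library the list was at 167 and 165 CPM. The NK cell list was at 1506 and 572 CPM in Cd8-only and 449 and 322 CPM in Cd4-only barcodes. In Cd4-only barcodes its direction turned in 6 of 16 settings, and a UMI of the list was found in 14.9% of C1 and 42.6% of C2 barcodes. Of 8 NK markers with enough UMIs in Cd8-only barcodes, 6 were at least 2-fold higher in C1 and 1, Eomes, in C2, and 0 of the 9 on the list were at 0 UMIs in either library. The macrophage list was at 99.1 and 99.7 CPM in Cd8-only and at 106 and 46.9 CPM in Cd4-only barcodes, and the B cell list at 116 and 118 CPM and at 77.1 and 152 CPM. Results that move with these lists are given below with the values after such barcodes were taken out.

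Across genes with a mean of both libraries of at least 20 CPM, most of the transcriptome was alike in C1 and C2. Of 5691 such genes in Cd8-only barcodes, 177 (3.11%) were at least 2-fold higher in C2 and 133 (2.34%) at least 2-fold higher in C1. Of 5925 in Cd4-only barcodes, the numbers were 169 (2.85%) and 187 (3.16%). The median log2 ratio of C2 over C1 was 0.09 and 0.02, and 94.6% and 94.0% of genes lay within 2-fold. The counts for gene lists given below are to be read against these percentages. Foxp3, Mki67, Fos, Nr4a1, Batf, Tbx21, Gzma, Il10, Ncr1, Lef1, Entpd1 and Cd160 are named below although they were chosen after their values were seen; the other genes follow a rule of rank. The 2 classes come from the same pair of libraries, so a gene that differs in both has not been seen in further mice.

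**Figure D1:**
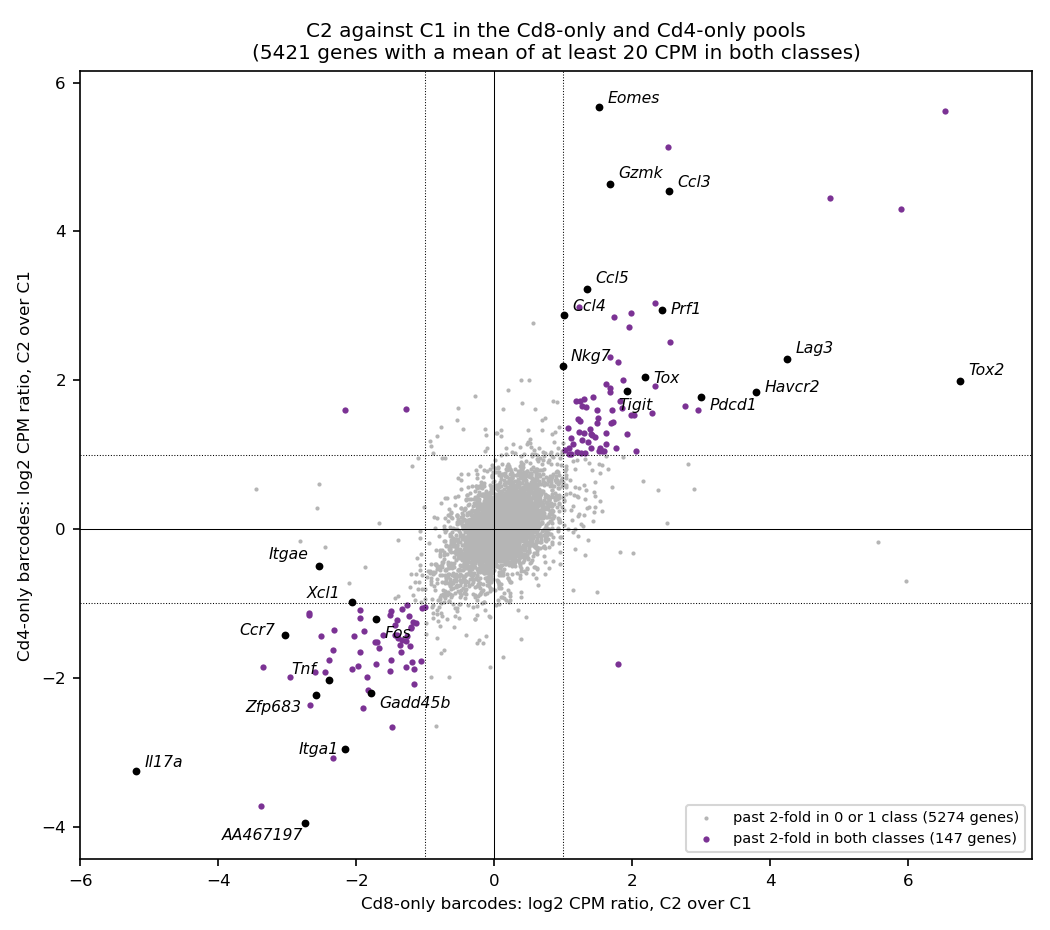
Each point is 1 of 5421 genes with a mean of at least 20 CPM in both classes; the x axis is the log2 ratio of CPM, C2 over C1, in Cd8-only barcodes and the y axis the same ratio in Cd4-only barcodes, with a count of 0 set to 3 UMIs and dotted lines at 2-fold. Lag3 and Tox2 lie farthest to the right among the labelled genes, Eomes and Gzmk highest, and Il17a and AA467197 at the lower left; the 147 purple genes are past 2-fold in both classes.

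In Cd8-only barcodes, genes for inhibitory receptors were higher in C2. Of 10 such genes with enough UMIs, 6 were at least 2-fold higher in C2 and 0 in C1, with a median log2 ratio of 1.15 against 0.09 over all genes, and the list summed to 846 CPM in C1 and 2537 CPM in C2. Lag3, whose product binds MHC class II and restrains T cells, stood at 24.8 CPM in C1 and 470.1 CPM in C2, which is 19.0-fold (log2 ratio 4.25, 3.81 to 4.72). Pdcd1, which encodes PD-1, stood at 71.3 CPM in C1 and 573 CPM in C2, 8.02-fold (log2 ratio 3.0, 2.75 to 3.28). Havcr2, the gene of TIM-3, was at 12.4 CPM in C1 and 172 CPM in C2 (log2 ratio 3.79, 3.18 to 4.49). C2 was therefore the higher library for each of these 3 receptors.

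Tigit, which encodes a receptor for nectin-family ligands, was at 135 CPM in C1 and 513 CPM in C2 (log2 ratio 1.92, 1.73 to 2.12). Ctla4, whose product competes with CD28 for its ligands, was at 142 CPM in C1 and 312 CPM in C2 (log2 ratio 1.14, 0.95 to 1.34). Entpd1, encoding the ectonucleotidase CD39, was at 34.2 CPM in C1 and 76.7 CPM in C2 (log2 ratio 1.17, 0.78 to 1.57). Not every inhibitory receptor differed: Cd160 stood at 157 CPM in C1 and 159 CPM in C2. The libraries C3 and C4 had low levels of the leading genes in their Cd8-only barcodes, with Lag3 at 16.0 and 3.99 CPM and Pdcd1 at 8.90 and 3.76 CPM.

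The difference was also one of how many barcodes held a UMI. Pdcd1 was found in 24.3% of C1 and 73.9% of C2 barcodes, and after each barcode was thinned to 2000 UMIs in 13.4% (9.22 to 18.6%) of C1 barcodes and 54.7% (52.6 to 56.8%) of C2 barcodes. Lag3 was found in 13.3% of C1 and 64.3% of C2 barcodes, and after thinning in 3.57% (1.55 to 6.92%) of C1 barcodes and 44.6% (42.6 to 46.7%) of C2 barcodes. Macrophage barcodes of C1 and C2 gave thinned shares of 2.33% and 1.25% for Pdcd1 and 2.45% and 9.97% for Lag3. The C1 share of Lag3 in Cd8-only barcodes lies near that of C1 macrophage barcodes. Without thinning, macrophage barcodes of C2 held Lag3 in 24.9% and Pdcd1 in 6.65%. Whether macrophages express Lag3 themselves was not tested, so their share is not read as a background. Havcr2 was in 29.6% and 31.5% of macrophage barcodes, which express TIM-3 themselves, and its shares in T cells are not read against them. Both Lag3 and Pdcd1 were found in 12 of 226 barcodes of C1 (5.31%) and 1256 of 2322 barcodes of C2 (54.1%). In the mm10 assembly Lag3 (ENSMUSG00000030124) spans chr6:124904359-124912434 and Pdcd1 (ENSMUSG00000026285) spans chr1:94038305-94052553, and the positions below are of the same assembly.

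Transcription factors that accompany these receptors were higher in C2 as well. Tox (ENSMUSG00000041272, chr4:6686353-6991557), a factor of persistently stimulated T cells, stood at 76.7 CPM in C1 and 351 CPM in C2 (log2 ratio 2.19, 1.94 to 2.46), and its thinned share was 13.4% (9.22 to 18.6%) of C1 barcodes and 44.6% (42.6 to 46.7%) of C2 barcodes. Its relative Tox2 was at 0.590 CPM in C1 and 63.6 CPM in C2, from 1 and 903 UMIs (log2 ratio 6.75, 4.27 to 12.06), so the ratio has a wide interval. Eomes, a T-box factor of CD8 memory and NK cells, was at 82.5 CPM in C1 and 237 CPM in C2 (log2 ratio 1.52, 1.28 to 1.78). C2 was higher for all 3 factors.

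Batf, an AP-1 family factor of activated T cells, was at 36.0 CPM in C1 and 147 CPM in C2 (log2 ratio 2.03, 1.66 to 2.42). Prdm1, which encodes BLIMP-1, was at 12.4 CPM in C1 and 64.5 CPM in C2 (log2 ratio 2.38, 1.76 to 3.08). Maf was at 14.2 CPM in C1 and 56.9 CPM in C2 (log2 ratio 2.01, 1.42 to 2.66). Of the 14 genes in the list of exhaustion-associated factors, 9 were at least 2-fold higher in C2 and 1, the nuclear receptor gene Nr4a3, in C1; the median was 1.49. Rgs16, a regulator of G protein signalling in that list, was at 73.7 CPM in C1 and 328 CPM in C2, with 20.8% of its C1 UMIs in 1 barcode.

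Among surface activation genes, Tnfrsf9, which encodes the costimulatory receptor 4-1BB, was at 47.2 CPM in C1 and 239 CPM in C2 (log2 ratio 2.34, 2.02 to 2.68). Cd27, another costimulatory receptor of the same family, was at 87.3 CPM in C1 and 219 CPM in C2 (log2 ratio 1.33, 1.09 to 1.57). The adaptor gene Sh2d1a, which encodes SAP, was at 73.7 CPM in C1 and 268 CPM in C2 (log2 ratio 1.86, 1.61 to 2.13). Cd226, an activating receptor that shares ligands with TIGIT, ran the other way, at 232 CPM in C1 and 53.8 CPM in C2 (log2 ratio -2.11, -2.28 to -1.93). Costimulatory receptors as a list were divided, with 3 of 10 past 2-fold in C2 and 2 in C1.

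Several other genes were among those that led the ranking of Cd8-only genes higher in C2. Nrn1, which encodes the membrane protein neuritin, was at 3.54 CPM in C1 and 103 CPM in C2 (log2 ratio 4.87, 3.74 to 6.31). Glp1r, the receptor of glucagon-like peptide 1, was at 2.36 CPM in C1 and 51.5 CPM in C2 (log2 ratio 4.45, 3.09 to 6.33). Mir155hg, the host transcript of miR-155, was at 5.90 CPM in C1 and 40.3 CPM in C2 (log2 ratio 2.77, 1.88 to 3.84). All 3 were higher in C2, and for Nrn1 and Glp1r the C1 level rests on 6 and 4 UMIs.

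Cytotoxic genes did not move as 1 group in Cd8-only barcodes. Of 14 granule genes, 2 were at least 2-fold higher in C2, Gzmk and Prf1, and 2 in C1, Gzma and Gzmc, and the list summed to 7409 CPM in C1 and 9352 CPM in C2 (log2 ratio 0.34). Gzmk (ENSMUSG00000042385, chr13:113171630-113180965), a granzyme of memory-type CD8 T cells, stood at 232 CPM in C1 and 746 CPM in C2, 3.21-fold (log2 ratio 1.68, 1.54 to 1.83), with thinned shares of 31.2% (25.2 to 37.8%) of C1 barcodes and 70.5% (68.5 to 72.4%) of C2 barcodes against 0.123% and 0% in macrophage barcodes. Prf1, the pore-forming perforin, was at 61.9 CPM in C1 and 336 CPM in C2 (log2 ratio 2.44, 2.16 to 2.73).

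The other granule genes were within 2-fold or higher in C1. Gzmb, the granzyme most used for killing, was at 693 CPM in C1 and 648 CPM in C2 (log2 ratio -0.10, -0.18 to -0.01). Nkg7, a granule membrane protein, was at 2262 CPM in C1 and 4504 CPM in C2, just under 2-fold (log2 ratio 0.99, 0.95 to 1.04). Gzma was at 478 CPM in C1 and 214 CPM in C2 (log2 ratio -1.16, -1.27 to -1.05), and Gzmc, a granzyme strongly expressed by tissue NK cells, at 299.5 CPM in C1 and 28.8 CPM in C2 (log2 ratio -3.38, -3.57 to -3.19). Without barcodes that held an Ncr1, Tyrobp or Klrb1c UMI, which are NK cell genes, the log2 ratio was -1.23 for Gzma, 0.53 for Gzmb and -3.06 for Gzmc. The UMIs left for Gzmc in that setting are not given here. Its ratio may rest on few UMIs or on the floor of 3 UMIs, so no remaining difference is read from it. Over 16 settings the direction of Gzmb turned in 4, and Gzma was under 2-fold in 2, those without the top 5% of doublet scores and without the top barcode. Ifng, the cytokine interferon gamma, was at 338 CPM in C1 and 283 CPM in C2, within 2-fold (log2 ratio -0.25, -0.38 to -0.13), and its thinned shares of 32.1% (26.1 to 38.7%) of C1 barcodes and 30.0% (28.1 to 31.9%) of C2 barcodes overlapped in their intervals.

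Chemokine genes were divided, and the list's median and sum differ in sign. Of 7 chemokine genes, 3 were at least 2-fold higher in C2, Ccl3, Ccl4 and Ccl5, and 4 in C1, Ccl1, Xcl1, Cxcl10 and Cxcl2. The median log2 ratio was -1.48, whereas the summed level was 11408 CPM in C1 and 25889.7 CPM in C2, since Ccl5 makes up most of it. Ccl5 (ENSMUSG00000035042, chr11:83525778-83530518), a chemokine that attracts T cells and monocytes, was at 8208 CPM in C1 and 20955 CPM in C2 (log2 ratio 1.35, 1.33 to 1.38). Ccl4, a chemokine of the same CC family, was at 1648 CPM in C1 and 3311 CPM in C2 (log2 ratio 1.01, 0.95 to 1.06), at the edge of 2-fold and below it in 9 of the settings tried. Ccl3 was at 224 CPM in C1 and 1305 CPM in C2, and 47.1% of its C1 UMIs came from 1 barcode; without the top barcode of each library its log2 ratio moved from 2.54 to 3.43. Free RNA of C1 and C2 held Ccl3 at 226 and 114 CPM.

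Xcl1, the ligand for the receptor of cross-presenting dendritic cells, was at 1134 CPM in C1 and 273 CPM in C2 (log2 ratio -2.06, -2.14 to -1.98), and its log2 ratio without the NK-gene barcodes was -1.84. Cxcl10 was at 95.5 CPM in C1 and 34.3 CPM in C2, but 1 barcode held 62.3% of its C1 UMIs. Il17a was listed at 74.9 CPM in C1 and 2.04 CPM in C2 in Cd8-only barcodes and came from 2 barcodes in each library. Tnf, the cytokine TNF, was at 159 CPM in C1 and 30.3 CPM in C2 (log2 ratio -2.40, -2.62 to -2.17). Il2, the T cell growth factor, was at 50.1 CPM in C1 and 4.57 CPM in C2, with 71.8% of the C1 UMIs in 1 barcode. C1 was the higher library for each of these ligands, and of them Cxcl10, Il17a and Il2 rest on few barcodes.

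Genes of tissue residency were higher in C1 in Cd8-only barcodes. Of 10 residency genes, 0 were at least 2-fold higher in C2 and 5 in C1, Itgae, Itga1, Zfp683, Cdh1 and Xcl1, with a median of -1.52 and a summed level of 5165 CPM in C1 and 2912 CPM in C2. Itgae (ENSMUSG00000005947, chr11:73090505-73147449), which encodes the CD103 chain that binds E-cadherin on epithelium, stood at 229 CPM in C1 and 39.2 CPM in C2, 5.84-fold (log2 ratio -2.54, -2.73 to -2.35). Itga1, the CD49a chain that binds collagen, was at 149.8 CPM in C1 and 33.4 CPM in C2 (log2 ratio -2.17, -2.39 to -1.94). Zfp683, encoding the residency factor HOBIT, was at 75.5 CPM in C1 and 12.6 CPM in C2 (log2 ratio -2.58, -2.92 to -2.24). These 3 genes were higher in C1 under all settings in which they were recomputed.

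NK cells share some of these genes, and the NK list moved the same way. The setting without the NK-gene barcodes left 178 of 226 in C1 and 2246 of 2322 in C2. There the log2 ratio was -2.64 for Itgae, -2.30 for Itga1 and -2.54 for Zfp683. That setting was chosen after seeing the data and cannot take out NK cells without a UMI of Ncr1, Tyrobp or Klrb1c. The part of NK cells in these differences was not tested. Thinned shares were 27.7% (21.9 to 34.0%) of C1 barcodes and 7.13% (6.1 to 8.28%) of C2 barcodes for Itgae and 22.3% (17 to 28.3%) of C1 barcodes and 6.42% (5.43 to 7.51%) of C2 barcodes for Itga1. Both integrin genes were found in 77 of 226 barcodes of C1 (34.1%) and 93 of 2322 barcodes of C2 (4.01%), and Itgae with Gzmk in 57 of 226 barcodes of C1 (25.2%) and 215 of 2322 barcodes of C2 (9.26%). Of the barcodes with Itgae, 48.3% in C1 and 79.3% in C2 held Gzmk. Both lie below the shares of all Cd8-only barcodes with Gzmk, 56.2% in C1 and 87.0% in C2. Not all residency genes differed: Cxcr6, the receptor for CXCL16, was at 417 CPM in C1 and 530.3 CPM in C2 (log2 ratio 0.35, 0.23 to 0.46). C3 and C4 stood at 4.73 and 43.4 CPM for Itgae and 1.82 and 1.06 CPM for Itga1.

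Genes of naive and recirculating T cells were also higher in C1. Of 11 in Cd8-only barcodes, 0 were at least 2-fold higher in C2 and 5 in C1, with a median of -0.86 and sums of 1448 CPM in C1 and 597 CPM in C2. Ccr7, the receptor that guides cells into lymph nodes, was at 106 CPM in C1 and 12.9 CPM in C2 (log2 ratio -3.03, -3.34 to -2.73). Klf2, a factor that keeps cells in circulation, was at 568 CPM in C1 and 155 CPM in C2 (log2 ratio -1.87, -1.98 to -1.76). Il7r, the survival receptor for IL-7, was at 204 CPM in C1 and 96.3 CPM in C2 (log2 ratio -1.08, -1.25 to -0.91). Lef1, a factor of naive T cells, was at 48.9 CPM in C1 and 23.5 CPM in C2 (log2 ratio -1.06, -1.41 to -0.69). These levels lie below those of C3 and C4, where Ccr7 was at 172 and 337 CPM and Il7r at 589.6 and 412 CPM.

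Ly6c2, a surface protein of memory CD8 T cells that interferon induces, was at 984 CPM in C1 and 278 CPM in C2 (log2 ratio -1.83, -1.91 to -1.74), with thinned shares of 50.4% (43.7 to 57.2%) of C1 barcodes and 12.3% (11 to 13.7%) of C2 barcodes. It was the only one of 19 interferon response genes past 2-fold in Cd8-only barcodes, and the list's sum had a log2 ratio of -0.28. Plac8 was at 236 CPM in C1 and 46.9 CPM in C2 (log2 ratio -2.33, -2.51 to -2.15). Rgs10, a regulator of G protein signalling, was at 184 CPM in C1 and 36.3 CPM in C2 (log2 ratio -2.34, -2.55 to -2.13). Rgcc, a regulator of the cell cycle, was at 108 CPM in C1 and 17.9 CPM in C2 (log2 ratio -2.60, -2.88 to -2.31), and Ldlrad4, an inhibitor of TGF-beta signalling, at 72.5 CPM in C1 and 11.3 CPM in C2 (log2 ratio -2.68, -3.03 to -2.33). The transcript AA467197 was at 51.3 CPM in C1 and 7.67 CPM in C2 (log2 ratio -2.74, -3.16 to -2.32) and Qpct, a glutaminyl cyclase, at 84.3 CPM in C1 and 15.8 CPM in C2 (log2 ratio -2.42, -2.73 to -2.11). All of these genes were higher in C1.

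NK-type receptors and adaptors were higher in C1 for 4 of 10 genes and in C2 for 0. Fcer1g and Tyrobp, signalling adaptors of innate cells, were at 482 CPM in C1 and 74.9 CPM in C2 and at 387 CPM in C1 and 77.4 CPM in C2 in that order. Klra7, a receptor for MHC class I, was at 97.3 CPM in C1 and 9.99 CPM in C2 (log2 ratio -3.28, -3.62 to -2.95). Ncr1, which encodes the NK receptor NKp46, was at 48.4 CPM in C1 and 10.5 CPM in C2 (log2 ratio -2.21, -2.60 to -1.80). Klra7 without the NK-gene barcodes had a log2 ratio of -3.06, the same value as Gzmc. Equal values can arise from few UMIs or from the floor of 3 UMIs, so they do not show that either difference remains. The part of NK cells caught by the gate in these levels was not tested beyond that.

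Cell cycle genes were higher in C2 in Cd8-only barcodes. Of 15 genes, 11 were at least 2-fold higher in C2 and 0 in C1, with a median of 1.11 and sums of 1536 CPM in C1 and 2926 CPM in C2. Pclaf, a partner of the replication clamp, was at 9.43 CPM in C1 and 73.2 CPM in C2 (log2 ratio 2.96, 2.25 to 3.77). Mki67, the proliferation marker, was at 32.4 CPM in C1 and 108 CPM in C2 (log2 ratio 1.73, 1.34 to 2.15). Without the deepest 5% of barcodes the log2 ratio of the list went from 0.93 to 0.26 and that of Mki67 from 1.73 to 0.70.

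Early response genes, which switch on within minutes of stimulation or of tissue digestion, were higher in C1. In Cd8-only barcodes 10 of 20 were at least 2-fold higher in C1 and 0 in C2, with a median of -1.09 and sums of 15773 CPM in C1 and 8709 CPM in C2. Fos, a chain of the factor AP-1, was at 1219 CPM in C1 and 373 CPM in C2 (log2 ratio -1.71, -1.78 to -1.63). Fosb was at 427 CPM in C1 and 109 CPM in C2, Junb at 3289 CPM in C1 and 1429.5 CPM in C2 and Nr4a1, a nuclear receptor induced by antigen receptor signals, at 471 CPM in C1 and 178 CPM in C2. Nfkbia, the inhibitor of NF-kappaB, was at 766 CPM in C1 and 329 CPM in C2 and Zfp36, which destabilises cytokine mRNA, at 635 CPM in C1 and 261 CPM in C2. Free RNA followed the same order, with the list at 5373 and 2217 CPM in C1 and C2. C3 and C4 held Fos at 185 and 195 CPM. The part of free RNA in this difference was not tested.

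**Figure D2:**
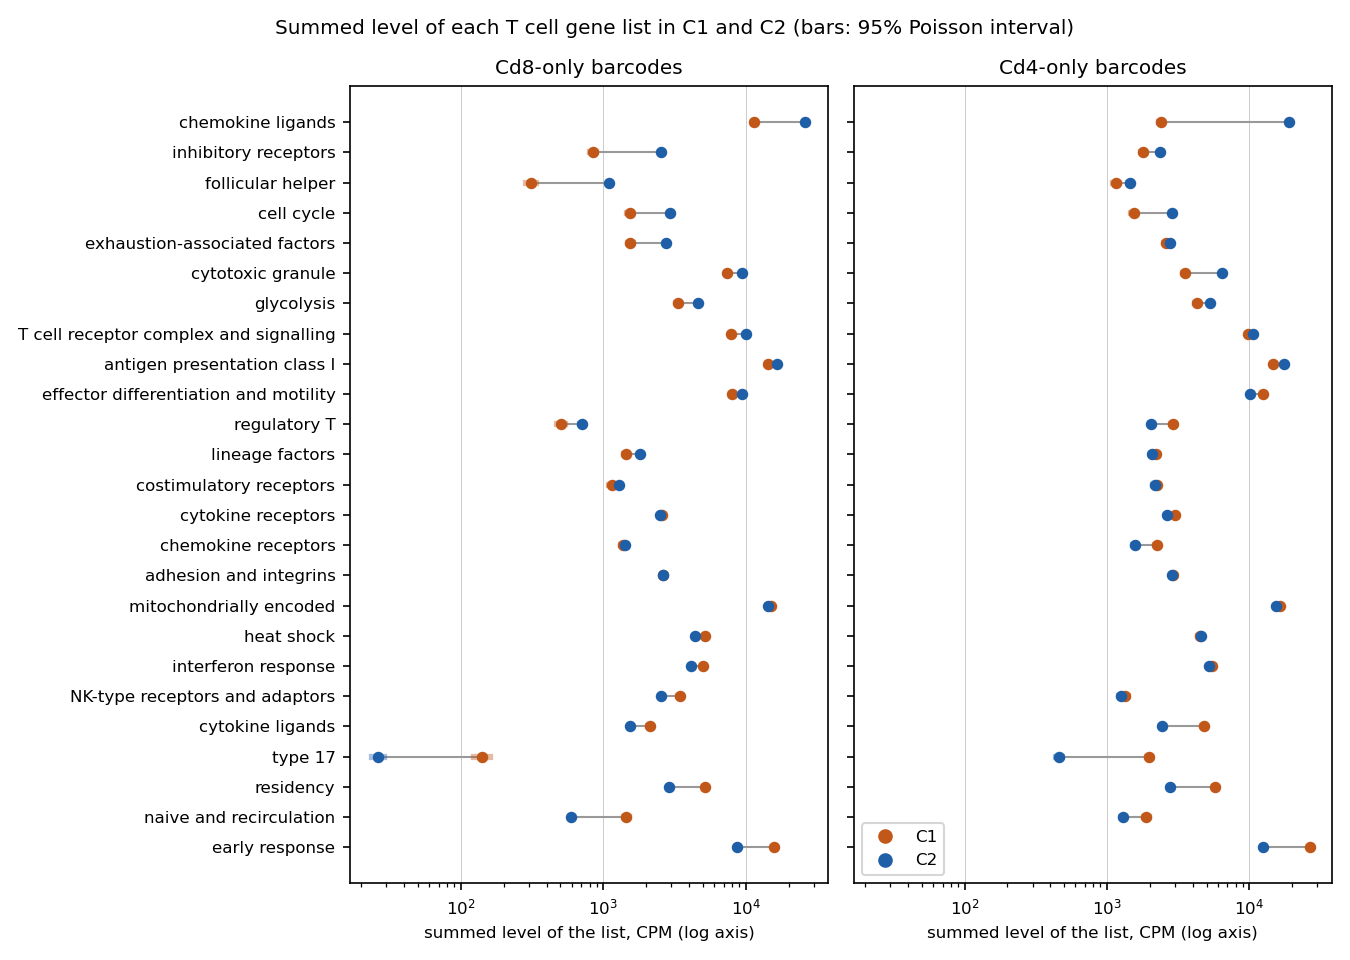
Summed level in CPM (log axis) of each of 25 T cell gene lists in C1 (orange) and C2 (blue), Cd8-only barcodes on the left and Cd4-only on the right, with bars for the 95% Poisson interval of counting error. Chemokine ligands and inhibitory receptors stand at the top with C2 higher, and type 17, residency, naive and early response lists at the bottom with C1 higher; the sum of the chemokine ligands in Cd4-only barcodes stands at 2401 and 19011 CPM.

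In Cd4-only barcodes, several genes better known from CD8 T cells were among those higher in C2. Gzmk stood at 29.3 CPM in C1 and 732 CPM in C2, 25.0-fold (log2 ratio 4.64, 4.21 to 5.11). It was found in 7.81% of C1 and 61.1% of C2 barcodes, and after thinning in 5.64% (3.19 to 9.13%) of C1 barcodes and 52.8% (49.1 to 56.5%) of C2 barcodes. Eomes (ENSMUSG00000032446, chr9:118478186-118486132) stood at 3.41 CPM in C1 and 174 CPM in C2, from 5 and 693 UMIs, 51.0-fold (log2 ratio 5.67, 4.44 to 7.30), with thinned shares of 0.752% (0.0912 to 2.69%) of C1 barcodes and 24.7% (21.6 to 28.0%) of C2 barcodes. Macrophage barcodes had Gzmk in 0.123% and 0% and Eomes in 0.736% and 0.623%, so the C1 share of Eomes lies near that of C1 macrophage barcodes. C2 was far higher for both genes.

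Most barcodes of C2 with Eomes also held Gzmk. A UMI of each was found in 0 of 269 barcodes of C1 and 280 of 759 barcodes of C2 (36.9%), where a count of 0 allows up to 3 barcodes, and in C2 this was 94.0% of the 298 barcodes with Eomes and 60.3% of the 464 with Gzmk. In C1, 3 barcodes held Eomes and 21 held Gzmk. The rule required 0 UMIs of Cd8a and Cd8b1 in these barcodes; with at least 2 Cd4 UMIs required as well, which left 178 barcodes in C1 and 552 in C2, the log2 ratio was 4.63 for Gzmk and 5.11 for Eomes. C3 and C4 stood at 303 and 0 CPM for Gzmk and 65.4 and 3.50 CPM for Eomes. Foxp3, the factor of regulatory T cells, shared few barcodes with Gzmk, 5 of 43 in C2.

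Other cytotoxic genes ran with them. Of 13 granule genes, 7 were at least 2-fold higher in C2 and 1, Gzmc, in C1, with a median of 1.09 against 0.02 over all genes and sums of 3517 CPM in C1 and 6378 CPM in C2. Without the top 5% of doublet scores the direction of Gzmc turned, from a log2 ratio of -3.72 to 0.20. Nkg7 was at 587 CPM in C1 and 2691 CPM in C2 (log2 ratio 2.20, 2.10 to 2.30). Prf1 was at 11.6 CPM in C1 and 89.3 CPM in C2 (log2 ratio 2.95, 2.25 to 3.74), and Gzmb at 151 CPM in C1 and 321 CPM in C2 (log2 ratio 1.09, 0.88 to 1.30), under 2-fold in 2 of 16 settings. All 3 were lower in Cd4-only than in Cd8-only barcodes of C2. In Cd8-only barcodes, Prf1 had differed in the same direction and Gzmb had been near equal.

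Ccl5, Ccl4 and Ccl3 were higher in C2 by larger ratios than in Cd8-only barcodes, a difference between classes that was not tested. Ccl5 was at 1687 CPM in C1 and 15771 CPM in C2, 9.35-fold (log2 ratio 3.22, 3.17 to 3.28), with thinned shares of 40.2% (34.3 to 46.4%) of C1 barcodes and 68.4% (64.9 to 71.8%) of C2 barcodes against 10.2% and 19.9% in macrophage barcodes. Ccl4 was at 327 CPM in C1 and 2396 CPM in C2 (log2 ratio 2.87, 2.74 to 3.01) and Ccl3 at 29.3 CPM in C1 and 684 CPM in C2 (log2 ratio 4.54, 4.11 to 5.01). Macrophages express Ccl3 and Ccl4 strongly, with thinned shares of 85.4% and 55.8% and 93.0% and 81.0%, and free RNA held Ccl3 at 226 and 114 CPM in C1 and C2. The C1 level of Ccl3 in Cd4-only barcodes lies below that of the free RNA of C1.

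Inhibitory receptors were higher in C2 in Cd4-only barcodes too, for 6 of 9 genes with 0 in C1 and a median of 1.77. Lag3 was at 71.6 CPM in C1 and 349.5 CPM in C2 (log2 ratio 2.29, 2.00 to 2.59), Pdcd1 at 116 CPM in C1 and 395 CPM in C2 (log2 ratio 1.77, 1.54 to 2.01) and Tigit at 131 CPM in C1 and 472 CPM in C2 (log2 ratio 1.85, 1.63 to 2.07). Havcr2 was at 34.1 CPM in C1 and 122 CPM in C2 (log2 ratio 1.84, 1.42 to 2.29), and Cd200, the ligand of an inhibitory receptor on myeloid cells, at 10.2 CPM in C1 and 62.5 CPM in C2 (log2 ratio 2.61, 1.86 to 3.47). Ctla4 ran the other way within 2-fold, at 1196 CPM in C1 and 677 CPM in C2 (log2 ratio -0.82, -0.91 to -0.73). Ctla4 gave the most UMIs of the list in C1, and the sums of 1788 and 2375 CPM in C1 and C2 differ less than the median does.

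Both Lag3 and Pdcd1 were found in 11 of 269 barcodes of C1 (4.09%) and 284 of 759 barcodes of C2 (37.4%) of the Cd4-only barcodes, and Pdcd1 with Gzmk in 4 of 269 barcodes of C1 (1.49%) and 333 of 759 barcodes of C2 (43.9%). Tox was at 68.2 CPM in C1 and 283 CPM in C2 (log2 ratio 2.05, 1.75 to 2.36) and Tox2 at 16.4 CPM in C1 and 65.0 CPM in C2 (log2 ratio 1.99, 1.38 to 2.66). Tnfrsf9 was at 25.2 CPM in C1 and 95.6 CPM in C2 (log2 ratio 1.92, 1.43 to 2.45) and Sh2d1a at 77.1 CPM in C1 and 309 CPM in C2 (log2 ratio 2.00, 1.72 to 2.29). These 4 genes were higher in C2, as in Cd8-only barcodes.

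Several further Cd4-only genes higher in C2 were held by a minority of its barcodes. Penk, which encodes the opioid precursor proenkephalin and is known from regulatory T cells, was at 22.5 CPM in C1 and 467 CPM in C2, 20.7-fold (log2 ratio 4.37, 3.88 to 4.92), and was found in 12.1% of C2 barcodes. In C2, 7 of the 92 barcodes with Penk also held Foxp3, beside 43 of all 759 Cd4-only barcodes. Esm1, a secreted proteoglycan known from endothelium, was at 1.36 CPM in C1 and 97.6 CPM in C2, from 2 and 389 UMIs (log2 ratio 6.16, 4.30 to 9.21), and was found in 21.7% of C2 barcodes. Sostdc1, a secreted inhibitor of BMP and Wnt signals known from follicular T cells, was at 0 CPM in C1 and 74.8 CPM in C2, at least 36.5-fold higher in C2, and was found in 3.69% of C2 barcodes. Of the 28 barcodes with Sostdc1, 2 (7.14%) held Cxcr5, the receptor that leads T cells into follicles. Over all Cd4-only barcodes of C2 the share with Cxcr5 was alike, at 42 of 759 (5.53%).

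Baiap3 was at 10.2 CPM in C1 and 81.3 CPM in C2 (log2 ratio 2.99, 2.25 to 3.84), and Adgrg1, an adhesion receptor of cytotoxic lymphocytes, at 7.5 CPM in C1 and 61.5 CPM in C2 (log2 ratio 3.03, 2.17 to 4.06). Nrn1 was at 0 CPM in C1 and 44.7 CPM in C2, 21.8-fold higher in C2 with the 0 set to 3 UMIs. Il10, the inhibitory cytokine, was at 21.1 CPM in C1 and 53.2 CPM in C2 (log2 ratio 1.33, 0.78 to 1.92). Foxp3 was at 14.3 CPM in C1 and 34.6 CPM in C2 (log2 ratio 1.27, 0.60 to 2.01), with thinned shares of 1.13% (0.233 to 3.26%) of C1 barcodes and 3.72% (2.47 to 5.37%) of C2 barcodes, so few Cd4-only barcodes of either library held it. The Foxp3 difference was under 2-fold in 3 of 15 settings, with a log2 ratio of 0.56 for the mean of each barcode CPM. Of 10 regulatory T genes, 3 were past 2-fold in C2 and 2 in C1, among them Il2ra, the IL-2 receptor alpha chain, at 46.4 CPM in C1 and 9.53 CPM in C2 (log2 ratio -2.28, -2.89 to -1.69).

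**Figure D3:**
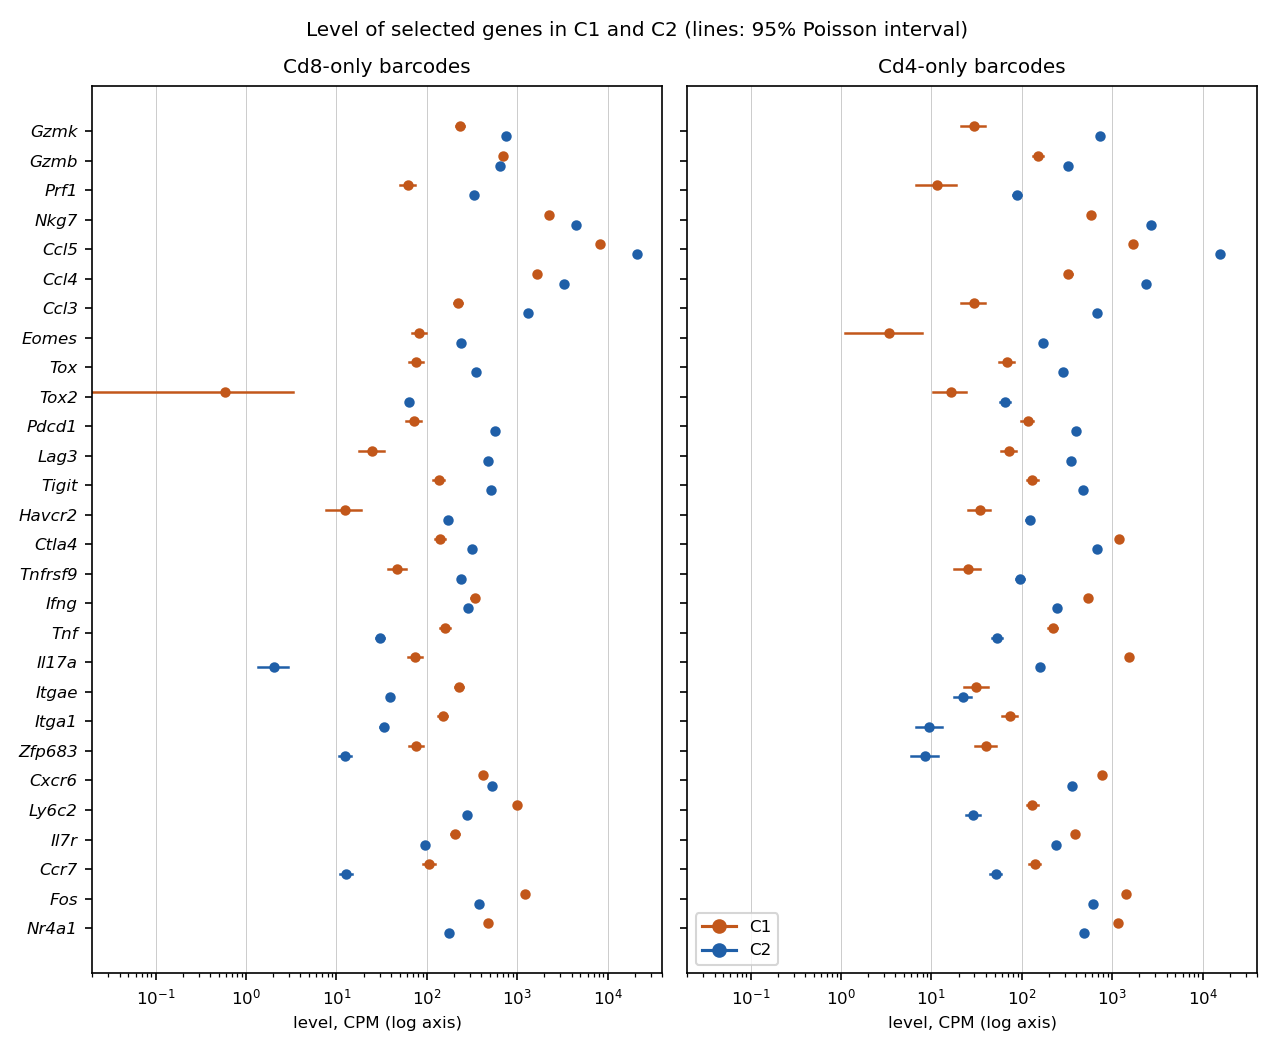
Level in CPM (log axis) of 28 genes in C1 (orange) and C2 (blue), in Cd8-only barcodes on the left and Cd4-only barcodes on the right, with lines for the 95% Poisson interval of counting error. The gap between C1 and C2 for Gzmk and Eomes is wider in Cd4-only barcodes, that for Lag3 and Itgae wider in Cd8-only barcodes, and Ctla4 lies higher in C2 on the left and higher in C1 on the right. The interval of Tox2 in C1, from 1 UMI, runs past the left end of the axis.

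Il17a and Ltb4r1 were higher in C1 in Cd4-only barcodes. Il17a (ENSMUSG00000025929, chr1:20730905-20734496), which encodes the neutrophil-recruiting cytokine IL-17A, stood at 1522 CPM in C1 and 159 CPM in C2, 9.55-fold (log2 ratio -3.26, -3.39 to -3.13). It was found in 14.5% of C1 and 2.77% of C2 barcodes, and after thinning in 14.3% (10.3 to 19.1%) of C1 barcodes and 2.48% (1.48 to 3.90%) of C2 barcodes, against 0.0409% and 0% in macrophage barcodes. Ltb4r1, a leukotriene B4 receptor, was at 39.6 CPM in C1 and 5.77 CPM in C2 (log2 ratio -2.78, -3.54 to -2.06).

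Il17f ran against them at 7.5 CPM in C1 and 46.4 CPM in C2 (log2 ratio 2.63, 1.76 to 3.66), with 72.7% of its C1 UMIs in 1 barcode. Of the barcodes with Il17a, 3 of 39 in C1 and 10 of 21 in C2 also held Il17f. None of the 39 with Il17a in C1 held Gzmk, and 2 of 21 (9.52%) in C2 did. Over all Cd4-only barcodes Gzmk was found in 7.81% in C1 and 61.1% in C2, so the C2 count lies below its library's share. With at least 2 Cd4 UMIs required, the log2 ratio of Il17a was -2.74. C3 and C4 held Il17a at 11.9 and 0.900 CPM. Barcodes with neither co-receptor, which the comparison leaves out, held Il17a at 441 CPM in C1 and 142 CPM in C2, with the gamma-delta chain gene Trdc at 41.6 and 18.0 CPM.

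Other effector cytokines were higher in C1. Tnf was at 219 CPM in C1 and 53.4 CPM in C2 (log2 ratio -2.03, -2.29 to -1.78), and Ifng at 538 CPM in C1 and 243 CPM in C2 (log2 ratio -1.15, -1.29 to -1.01). Cd40lg, the ligand that T cells use to help B cells and macrophages, was at 392 CPM in C1 and 172 CPM in C2 (log2 ratio -1.19, -1.35 to -1.03). Tbx21, which encodes T-bet, the factor that drives Ifng, was at 100.3 CPM in C1 and 48.7 CPM in C2 (log2 ratio -1.04, -1.36 to -0.72). Of 17 cytokine genes, 5 were at least 2-fold higher in C1 and 2, Il10 and Il17f, in C2.

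Mmp9, a matrix metalloproteinase, was at 80.5 CPM in C1 and 0 CPM in C2, and was found in 18.2% of C1 barcodes. With the 0 set to 3 UMIs this was 107-fold higher in C1. Socs2, a feedback inhibitor of cytokine signals, was at 100.3 CPM in C1 and 8.28 CPM in C2 (log2 ratio -3.60, -4.19 to -3.05), and Adam8, a membrane protease, at 73.7 CPM in C1 and 11.8 CPM in C2 (log2 ratio -2.64, -3.17 to -2.14). Igfbp4, which binds insulin-like growth factors and marks naive CD4 T cells, was at 60.0 CPM in C1 and 2.26 CPM in C2 (log2 ratio -4.73, -5.91 to -3.74). AA467197 was at 93.4 CPM in C1 and 6.02 CPM in C2 (log2 ratio -3.96, -4.65 to -3.32). C1 was the higher library for all 5 genes, and the first was not seen in C2.

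Ly6g5b was at 44.3 CPM in C1 and 5.52 CPM in C2 and Prrt1 at 38.2 CPM in C1 and 5.52 CPM in C2. Gadd45b, a stress-induced gene, was at 1124 CPM in C1 and 244 CPM in C2 (log2 ratio -2.21, -2.32 to -2.09). Ccr2, the receptor for the monocyte chemokine CCL2, was at 306 CPM in C1 and 92.8 CPM in C2 (log2 ratio -1.72, -1.92 to -1.52). Capg, an actin-capping protein, was at 806 CPM in C1 and 223 CPM in C2 (log2 ratio -1.86, -1.98 to -1.73), and Lgals3, which encodes galectin 3, at 178 CPM in C1 and 44.9 CPM in C2 (log2 ratio -1.99, -2.27 to -1.71). Of 14 genes of effector differentiation and motility, 4 were past 2-fold in C1, Lgals3, Anxa1, Ahnak and Capg, and 0 in C2. Macrophages express several of these genes, and their marker list was at 106 and 46.9 CPM in the Cd4-only pools of C1 and C2. For 0 C1q UMIs a barcode, the log2 ratio was -1.84 for Capg and -2.17 for Lgals3.

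Residency and naive genes were higher in C1 in Cd4-only barcodes too. Itga1 was at 74.3 CPM in C1 and 9.53 CPM in C2 (log2 ratio -2.96, -3.54 to -2.42), Zfp683 at 40.2 CPM in C1 and 8.53 CPM in C2 (log2 ratio -2.24, -2.89 to -1.61) and Cxcr6 at 775 CPM in C1 and 363 CPM in C2 (log2 ratio -1.09, -1.21 to -0.98). Itgae, in contrast to Cd8-only barcodes, was low in both libraries at 31.4 CPM in C1 and 22.3 CPM in C2 (log2 ratio -0.49, -1.02 to 0.06). Of 9 residency genes, 5 were past 2-fold in C1 and 0 in C2. Ccr7 was at 139.8 CPM in C1 and 51.9 CPM in C2 (log2 ratio -1.43, -1.71 to -1.14), and 4 of 12 naive genes were past 2-fold in C1. Ly6c2 was at 131 CPM in C1 and 29.1 CPM in C2, with 54.2% of its C1 UMIs in 1 barcode.

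Early response genes were higher in C1 for 13 of 20 genes, with 0 in C2, a median of -1.21 and sums of 26489.6 CPM in C1 and 12374 CPM in C2. Fos was at 1412 CPM in C1 and 609 CPM in C2, Junb at 6448 CPM in C1 and 2563 CPM in C2, Nr4a1 at 1153 CPM in C1 and 493 CPM in C2 and Zfp36 at 1730.4 CPM in C1 and 478 CPM in C2. Cell cycle genes were higher in C2 for 10 of 14 genes, with 0 in C1 and a median of 1.24. Mki67 was at 39.6 CPM in C1 and 107 CPM in C2 (log2 ratio 1.43, 1.04 to 1.86), Birc5, which encodes survivin, at 5.46 CPM in C1 and 40.9 CPM in C2 (log2 ratio 2.91, 1.89 to 4.14) and the histone gene Hist1h1d at 32.7 CPM in C1 and 215 CPM in C2 (log2 ratio 2.71, 2.29 to 3.16). Without the deepest 5% of barcodes the cell cycle sum had a log2 ratio of 0.52, against 0.88 with them.

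**Figure D4:**
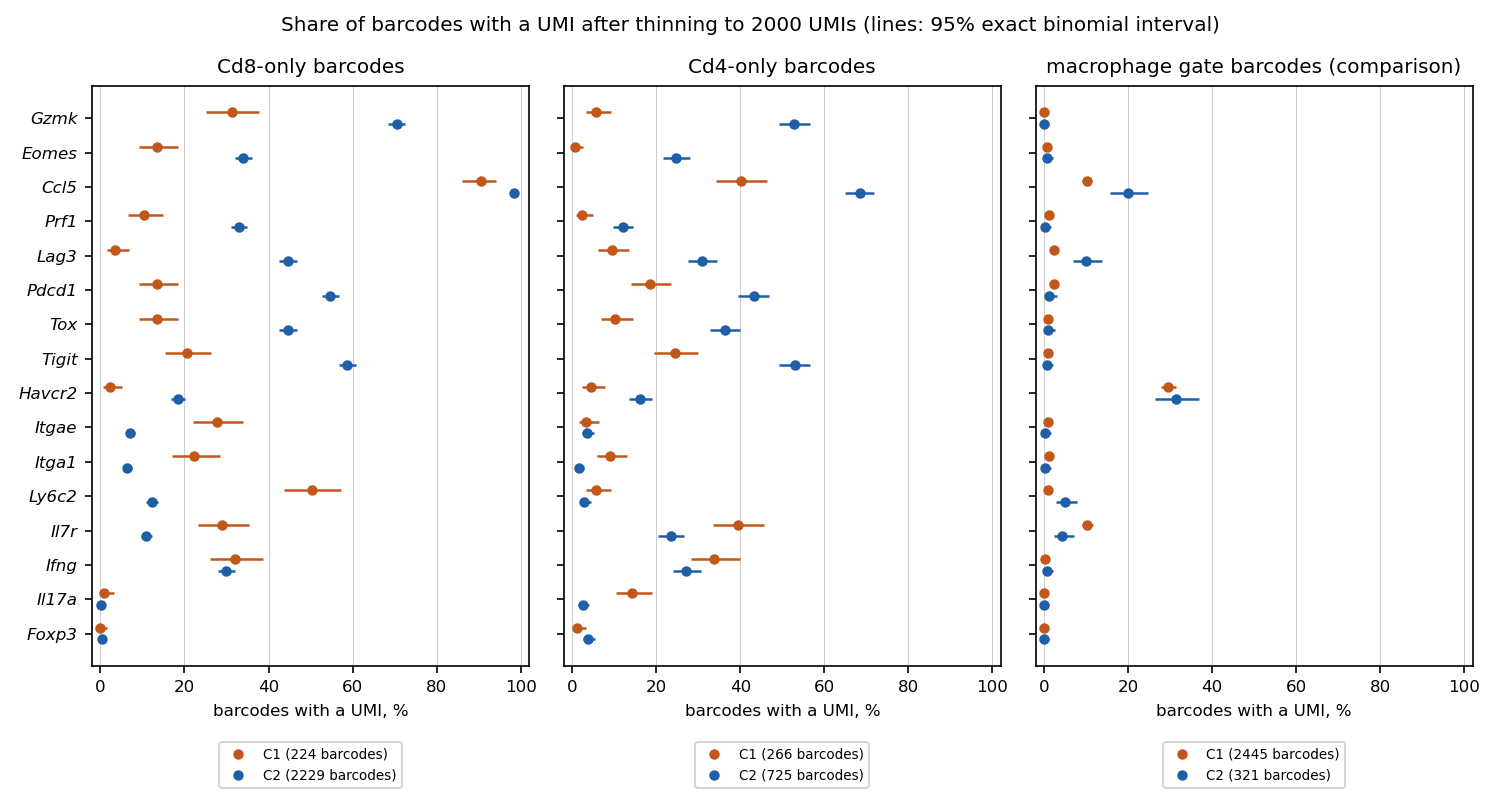
Share in percent of barcodes with at least 1 UMI of a gene after every barcode was thinned to 2000 UMIs, in C1 (orange) and C2 (blue), for Cd8-only, Cd4-only and, for comparison, macrophage gate barcodes, with lines for exact 95% binomial intervals. In T cell barcodes Gzmk, Eomes, Lag3, Pdcd1, Tox and Tigit lie farther right in C2 and Itga1 and Il7r in C1, whereas macrophage barcodes of both libraries stay near 0 for most of these genes.

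Several other parts of T cell biology were alike in both libraries within 2-fold. In each class 0 of 12 glycolysis genes, 0 of 13 mitochondrially encoded genes and 0 of 17 genes of class I antigen presentation lay past 2-fold. The same held for 0 of 84 ribosomal protein genes, with medians of -0.21 and -0.09. In Cd4-only barcodes Tcf7, a factor of naive and memory T cells, was at 163 CPM in C1 and 164 CPM in C2, Cd28, the main costimulatory receptor, at 333 CPM in C1 and 329 CPM in C2, and Maf at 427 CPM in C1 and 339.98 CPM in C2. Interferon response genes were past 2-fold in C1 for 2 of 19 genes in Cd4-only barcodes, Isg15 and Ly6c2. Heat shock genes were an exception, past 2-fold for 2 of 11 in both classes, Hspa1a and Hspa1b, both higher in C1. Their log2 ratios were -2.46 and -2.40 in Cd8-only barcodes and -1.92 and -1.76 in Cd4-only ones.

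Gene lists that name a cell state held members of mixed use. Of 5 follicular helper genes with enough UMIs in Cd8-only barcodes, 4 were past 2-fold in C2, Pdcd1, Tox2, Sh2d1a and Slamf6, and these are also known from stimulated CD8 T cells. In Cd4-only barcodes 5 of 6 were past 2-fold in C2, the same 4 with Sostdc1. Lineage factors were divided in Cd4-only barcodes, with Eomes and Foxp3 higher in C2 and Tbx21 higher in C1. The value of Foxp3 rests on few barcodes, as given above. Chemokine receptors were past 2-fold for 1 of 9 genes in Cd8-only barcodes, Ccr7, and for 3 of 10 in Cd4-only barcodes, Cxcr6, Ccr2 and Ccr7, all higher in C1. Cytokine receptors were past 2-fold in C2 for 3 of 14 and in C1 for 2 of 14 genes in Cd8-only barcodes, and for 1 and 2 of 16 in Cd4-only barcodes. Adhesion genes were past 2-fold for 1 of 9 in Cd8-only barcodes, Itgb7, which was higher in C1.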

How the data were processed

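Per the file headers, the values the authors deposited are unnormalized counts of UMIs for each gene and barcode, written by Cell Ranger 4; the submitters' processing notes name Cell Ranger 6.1.2, STAR 2.7.10a and mm10. Per the labels' protocols the libraries followed BD Rhapsody, whereas the design text names 10x. The deposited barcodes were not restricted to cells. The members and gene lists were chosen with earlier results of these data known.

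UMIs were summed per library and class with Python 3.11.15, numpy 2.4.6, scipy 1.17.1 and pandas 2.3.3. Ratios of CPM were taken for genes with a mean of at least 20 CPM, a count of 0 being set to 3 UMIs. Intervals are exact (Poisson for a level, Clopper-Pearson for a share, conditional binomial for a ratio). Ratio code was tested on simulated data. Genes named were, per class and direction, the 12 whose interval lay farthest from no difference, seen in at least 10 barcodes, leaving out receptor, immunoglobulin, ribosomal, mitochondrial and other cell type genes and those higher in free RNA, and per list up to 4 of highest level and 2 of largest ratio. A gene named for 1 class is reported in the other for only part of the genes. A few genes that this rule picks are not reported here. Doublets were not removed: Scrublet in scanpy 1.11.5 called 166 barcodes (2.96%) in C1 and 0 in C2, where it did not work, so barcodes with the top 5% of scores were left out as an alternative. For shares, each barcode was thinned to 2000 UMIs, which left out 2 Cd8-only barcodes of C1 and 93 of C2, 3 and 34 Cd4-only ones and 81 and 25 macrophage ones; a macrophage barcode held at least 10 C1q UMIs and 0 Cd3 UMIs. Positions come from the RefSeq table for GRCm38.p6, the mm10 assembly, in which 189 of 199 named genes were matched. Alternatives changed the gates, scaling, filters and the barcodes kept; 3 of them, those without the top barcode of a gene, without barcodes with NK genes and without barcodes over 5% salivary UMIs, were chosen after seeing the data.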

Additional observations from a re-analysis of the deposited data

Results flagged for a closer look

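Of the genes past 2-fold in both classes, 3 outside the receptor segments differed in opposite directions between Cd8-only and Cd4-only barcodes; that difference between the classes was not tested. Ccl1, a chemokine that binds CCR8, had a log2 ratio of C2 over C1 of -2.16 in Cd8-only barcodes, at 42.5 CPM in C1 and 9.50 CPM in C2, and of 1.60 in Cd4-only barcodes, at 15.7 CPM in C1 and 47.4 CPM in C2. Wfdc12, a protease inhibitor gene of the salivary marker list, had -1.28, at 119.7 CPM in C1 and 49.3 CPM in C2, and 1.61, at 11.6 CPM in C1 and 35.4 CPM in C2. The unnamed transcript Gm36723 had 1.79, at 13.6 CPM in C1 and 47.0 CPM in C2, and -1.82, at 41.6 CPM in C1 and 11.8 CPM in C2. Ccl1 and Wfdc12 did not meet the rule for named genes in both classes. For Wfdc12, 1 Cd8-only barcode of C1 held 83.9% of the UMIs of the salivary list. Without the top barcode of each library that list was higher in C2 in Cd8-only barcodes, at 6667 CPM in C1 and 19333 CPM in C2. The direction of Wfdc12 without that barcode is not given here.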

How the results depend on the processing

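With a gene or list counted once per class, 176 results of named genes and 14 of lists were past 2-fold. Of their recomputed values, 2796 of 2805 and 222 of 223 kept their direction, and 2697 and 209 lay past 2-fold. Of the values of genes and lists within 2-fold, 3055 of 3181 and 810 of 880 kept their direction. The counts of genes past 2-fold moved with the filter on low genes: with a mean of at least 50 CPM they were 78 higher in C2 and 62 in C1 for Cd8-only barcodes and 69 and 92 for Cd4-only, and with no filter 1027, 4788, 1058 and 3205 in the same order, where the unequal depth of the pools and the 3 UMI floor enter. With totals that left out salivary, receptor, immunoglobulin, ribosomal and mitochondrial genes, all Cd8-only ratios shifted by -0.10 (log2) and 211 genes were past 2-fold in C2 and 220 in C1, against 177 and 133.

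Among results past 2-fold, direction was reversed in 9 values of genes and 1 of a list. Without barcodes with a Foxp3, Mki67 or Top2a UMI, the log2 ratio was -0.67 for Birc5 and 0.84 for Cxcl10 in Cd8-only barcodes and -0.49 for Pclaf and -0.81 for Stmn1 in Cd4-only ones. Without the deepest 5% of barcodes, Stmn1 was at -0.17 in Cd8-only barcodes. Without the top 5% of doublet scores, Fcer1g was at 0.46, Gzmc at 0.20, Ncr1 at 0.52 and Tyrobp at 0.63 in Cd4-only barcodes. Without barcodes with an Ncr1, Tyrobp or Klrb1c UMI, the NK cell marker list was at 1.00 in Cd8-only barcodes, by the alternative's own construction. Birc5, Pclaf and Stmn1 are on the cell cycle list with Mki67 and Top2a. Taking out barcodes with a UMI of those 2 genes selects against that list by construction too. For the other values the cause was not tested.

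No paired analysis was possible because each side is 1 library. The C1 pools hold 226 and 269 barcodes, so a gene seen in few of them has a wide interval, and counting intervals say nothing about mice. Doublets and free RNA remain in all pools.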

Other observations

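Receptor V segments, which were left out of the named genes, differed between the libraries in both classes. Of 29 V, D and J segments with enough UMIs in Cd8-only barcodes, 12 were at least 2-fold higher in C2 and 2 in C1; in Cd4-only barcodes the numbers were 14 and 3 of 38. The segments and genes below were singled out after their values were seen. Trbv26, a beta chain segment, was found in 1 Cd8-only barcode of C1 and in 134 of C2 (5.77%), at 1.77 CPM in C1 and 111 CPM in C2. Trav7-4, an alpha chain segment, was found in 1 and in 111 barcodes (4.78% of C2), at 1.18 CPM in C1 and 55.8 CPM in C2. In Cd4-only barcodes the same segments did not lie past 2-fold, with Trbv26 at 103 CPM in C1 and 63.7 CPM in C2 and Trav7-4 at 38.9 CPM in C1 and 34.4 CPM in C2. Segments with similar sequence can share reads, and the receptor libraries that would show clones were not analysed here.

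In Cd8-only barcodes the gamma chain genes Trgv2, at 99.1 CPM in C1 and 263 CPM in C2, Tcrg-C2, at 21.8 CPM in C1 and 55.5 CPM in C2, and Tcrg-C4, at 7.67 CPM in C1 and 33.7 CPM in C2, were higher in C2. Spp1, which encodes the secreted protein osteopontin, was at 0.590 CPM in C1 and 54.5 CPM in C2 in Cd8-only barcodes, from 1 and 775 UMIs, and at 0 CPM in C1 and 101 CPM in C2 in Cd4-only ones, where 1 barcode held 43.9% of the C2 UMIs. The immunoglobulin gene Igkc was at 2.05 CPM in C1 and 72.0 CPM in C2 in Cd4-only barcodes, with free RNA at 95.9 and 74.2 CPM in C1 and C2.

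The gated barcodes with neither co-receptor, 414 in C1 and 327 in C2, held Gzmc at 2528 CPM in C1 and 310.5 CPM in C2 and Tyrobp at 2465 and 1209 CPM. They held the alpha chain gene Trac at 54.9 CPM in C1 and 217 CPM in C2, and Cd163l1, a receptor of gamma-delta T cells, at 68.2 and 0 CPM.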
